A study of Homo sapiens with 6 samples.

Results

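Cells make cholesterol and fatty acids from acetyl-CoA by separate branches, and they can also take lipid up from lipoproteins. The 31 genes described here cover both ways. They were taken by name from a list of genes of sterol and fatty acid synthesis and uptake, drawn up with earlier results of these data known, and all 31 stood in the deposited table of 11844 genes. By role they were 18 enzymes of sterol synthesis, 5 regulators and carriers of that branch, 7 genes of fatty acid synthesis and 1 gene of lipid uptake, LPL. Their RNA was measured in C4-2B, a human prostate cancer line of the LNCaP lineage, in stable sublines kept in RPMI1640 with serum. The control sublines carried the pcDNA 3.1 vector only, and the others carried pcDNA 3.1 with LINC00888, a long noncoding RNA, with 3 libraries in each group. Nothing in the labels tells separate cultures or clones within a group apart, so p-values cover only the spread between these libraries, which may be technical. LINC00888 itself was not analysed here; the labels give its overexpression by qRT-PCR as 15.27 ± 2.4-fold. Any other difference between the sublines cannot be told apart from LINC00888.

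Sterol synthesis runs from acetyl-CoA through mevalonate to the isoprenoid farnesyl diphosphate, then to squalene and lanosterol, which is trimmed to cholesterol. The transcription factors encoded by SREBF1 and SREBF2 set the expression of most of these enzymes. They are held in the endoplasmic reticulum with their escort SCAP by INSIG proteins while sterols are plentiful, and move on to be cleaved when sterols run low. The SREBF2 product acts mainly on sterol genes and the SREBF1 product mainly on fatty acid genes. Prostate cancer cells are known for high fatty acid synthesis, which androgens raise.

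Values are FPKM, fragments scaled to gene model length and to the mapped fragments of the library, and they summed to between 211148 and 217637 per library over the listed genes. Sequencing depth is unknown. All 8 prostate luminal markers examined were listed, among them KLK3, TMPRSS2 and KRT8, and their summed FPKM lay between 949 and 983 in both groups. That sum rests largely on KLK3 (372 to 409 FPKM) and FOLH1 (232 to 210 FPKM), which moved in opposite directions. With LINC00888, 2 of the 8 rose (TMPRSS2 and KLK3) and 4 fell (KLK2, KRT8, KRT18 and FOLH1) at an adjusted p under 0.05 by limma. The shares over all genes tested were 8.02% higher and 5.46% lower. Whether these shifts bear on the lipid genes was not tested, and in bulk RNA fewer cells of a kind and less RNA per cell cannot be told apart. Of 13 markers of fibroblasts, leukocytes, endothelium and fat cells 4 were listed, COL1A1, PDGFRB, CD68 and VWF, and they summed to between 4.34 and 5.14 FPKM per library with overlapping groups. Of these 4, PDGFRB had a mean of 0.308 FPKM in the controls and 0.65 FPKM with LINC00888. It reached the 0.5 FPKM filter only in the LINC00888 libraries, so its test is not read as a result. The fat cell markers ADIPOQ, PLIN1 and FABP4 were not among the listed genes.

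Of the 31 genes, LPL had the largest fold change. It encodes the lipase that frees fatty acids from triglyceride-rich lipoproteins at the cell surface, and LPL RNA was at 13.3, 12.9 and 13.5 FPKM in the empty vector libraries and at 28.9, 27.7 and 29.5 FPKM with LINC00888. Every LINC00888 library was above every control library, and the spread within each group was small beside the gap. The ratio of the group means was 2.16, from 13.2 ± 0.29 to 28.7 ± 0.92 FPKM (SD, n = 3), and the log2 fold change was 1.09 ± 0.04 (SE; adjusted p = 0.000193 by limma with Benjamini-Hochberg adjustment over 11726 genes tested). It was the sixth smallest p of all genes tested and the 20th largest rise. The call held in each of the 6 fits that left out 1 library, with an adjusted p of at most 0.00331. The deposited table places LPL (ENSG00000175445.14_3) on chromosome 8, from 19759228 to 19824769 on a build that is not stated. The 5 other genes tested within 1 Mb of it had log2 fold changes from -0.07 to 0.12. The groups were apart in the same way for LPL-201, its 1 listed transcript, at 14.99, 14.5 and 14.98 FPKM in the controls and 32.6, 31.2 and 33.2 FPKM with LINC00888 (adjusted p = 0.00432 by limma over 26941 transcripts).

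**Figure D1:**
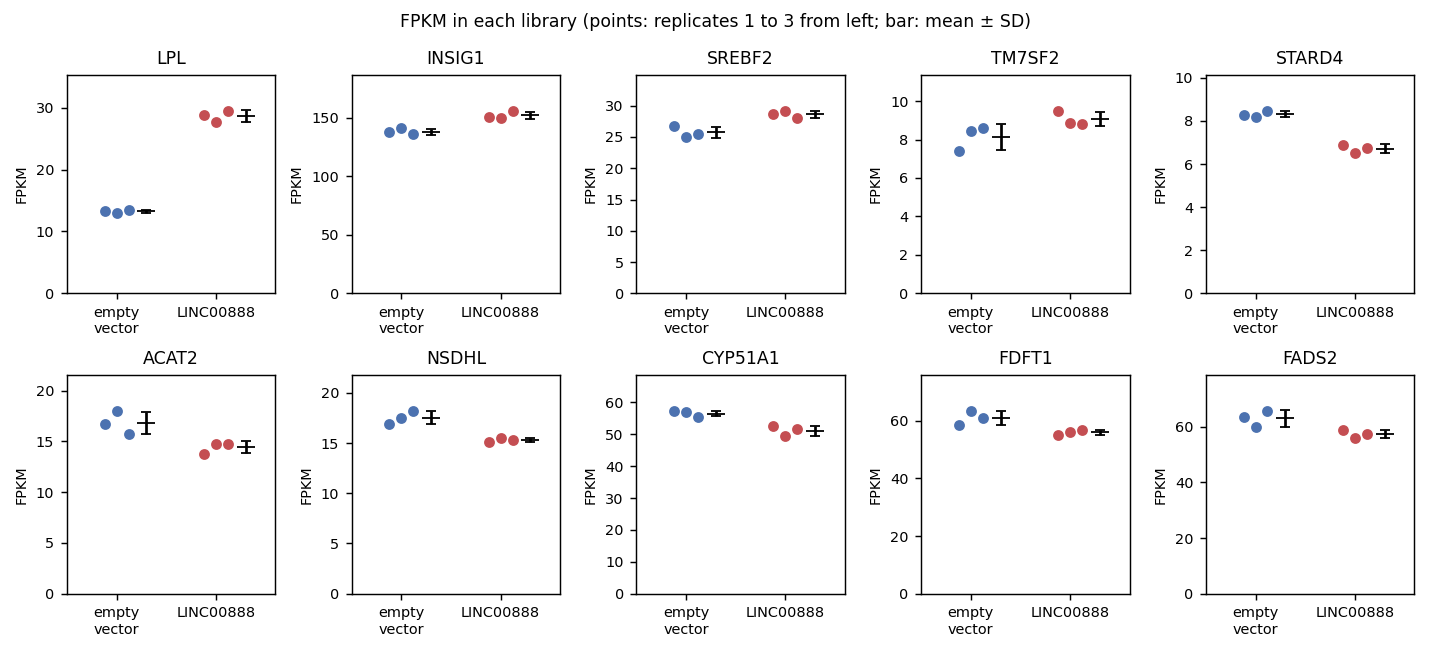
FPKM of 10 genes in each library, with 1 point per library and the mean ± SD beside it, for the empty vector group (blue) and the LINC00888 group (red). LPL goes from about 13 to about 29 FPKM, a ratio of 2.16, while the other genes differ by smaller ratios.

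Across the 31 genes, LPL stood alone in size. Past the threshold (adjusted p under 0.05, limma) were 5 of the 31: LPL and INSIG1 were higher, and STARD4, NSDHL and CYP51A1 were lower. Among all genes tested the shares were 13.5% called, 8.02% higher and 5.46% lower (941 and 640 genes; 750 and 844 after median ratio scaling), so 5 of 31 (16.1%) is near the background. The groups did not overlap in 11 of the 31, 4 higher and 7 lower with LINC00888, beside 38.3% of all genes tested (23.5% higher and 14.8% lower). The median log2 fold change was -0.034 in the 18 sterol enzymes, beside 0.031 over all genes tested. It was 0.032 in the 5 regulators and carriers (-0.0012 after median ratio scaling) and -0.011 in the 7 fatty acid genes (0.033 after quantile normalization and 0.057 after cyclic loess). Over all genes the median fold change was lower at higher expression, at -0.048 in the top decile of expression, where 13 of the 31 genes lay. For 28 of the 31 genes the 95% interval of the log2 fold change excluded a change of 1.5-fold in either direction, the others being LPL, HMGCS1 and SC5D.

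**Figure D2:**
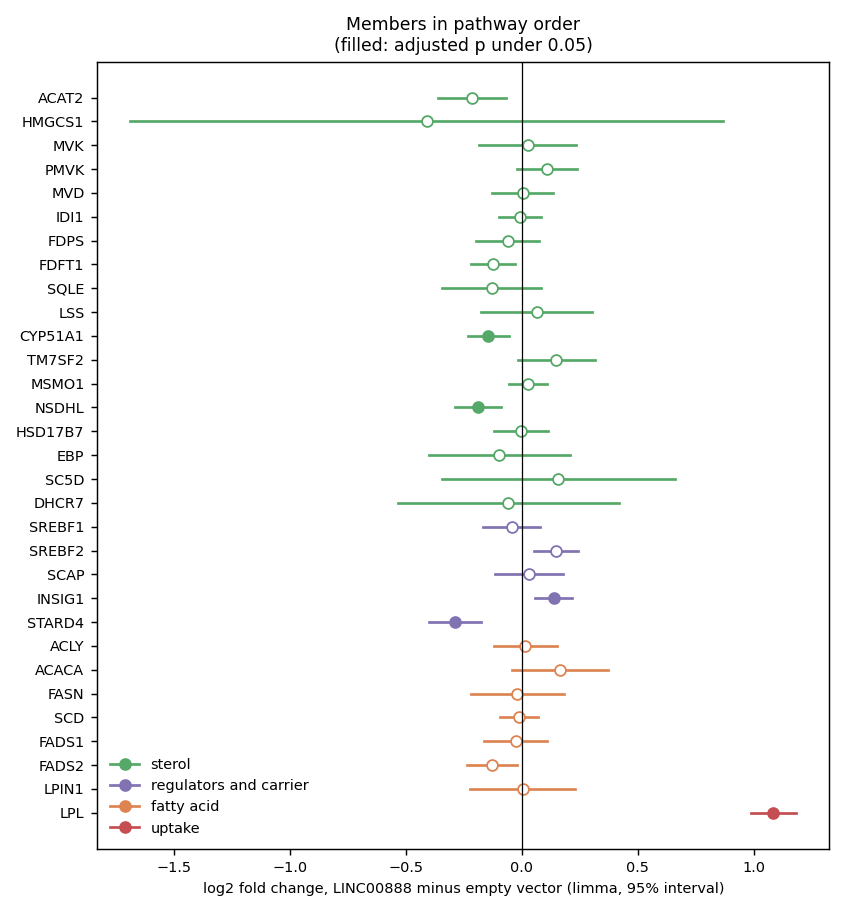
Log2 fold change (LINC00888 minus empty vector, limma) of the 31 genes with 95% intervals, in pathway order and coloured by branch, with filled points for an adjusted p under 0.05. LPL lies at 1.09, all other estimates lie between -0.41 and 0.16, and the widest interval is that of HMGCS1.

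Among the regulators, INSIG1, which retains the SREBP factors in the endoplasmic reticulum and is itself a target of them, was at 138, 141 and 136 FPKM in the controls and 151, 150 and 156 FPKM with LINC00888. The groups did not overlap, and the rise was 10.1% (138 ± 2.6 to 152 ± 3.3 FPKM, SD, n = 3; log2 fold change 0.14 ± 0.03 SE, adjusted p = 0.042 by limma). SREBF2 was at 26.7, 25.01 and 25.5 FPKM in the controls and 28.7, 29.2 and 27.97 FPKM with LINC00888. Its groups did not overlap either, with a log2 fold change of 0.15 (95% interval 0.05 to 0.24), and it did not pass (adjusted p = 0.0569). SREBF1 was at 36.8, 34.4 and 34.3 FPKM and then 34.1, 35.8 and 32.4 FPKM, with overlapping groups (log2 fold change -0.043, interval -0.17 to 0.08). SCAP, the escort, was at 9.26, 9.43 and 8.71 FPKM and then 9.70, 9.66 and 8.70 FPKM, again overlapping. INSIG1 no longer passed when any single library was dropped (largest adjusted p 0.133), nor with median ratio scaling (0.129), while SREBF2 passed after quantile normalization or cyclic loess (smallest adjusted p 0.0409).

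STARD4, a soluble protein that carries cholesterol between membranes, moved the other way from INSIG1, although both are known SREBP targets. It was at 8.26, 8.19 and 8.46 FPKM in the controls and 6.89, 6.49 and 6.77 FPKM with LINC00888, with no overlap. It fell by 19.1% (log2 fold change -0.29 ± 0.05 SE, adjusted p = 0.0147 by limma). Its call ended when empty vector library 3 was dropped, or LINC00888 library 2 (largest adjusted p 0.0574). Of its 4 listed transcripts, STARD4-212 was at 7.24, 5.95 and 7.10 FPKM and then 5.08, 1.54 and 2.91 FPKM, while STARD4-201 was at 3.96, 5.03 and 4.24 FPKM and then 4.07, 6.07 and 5.54 FPKM. Neither passed over all transcripts (adjusted p = 0.396 and 0.729).

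In the early, mevalonate part of the sterol branch 0 of 7 genes passed by limma, and 1, ACAT2, had an unadjusted p under 0.05. Of all genes tested 13.5% were called, and 3657 of 11726 had an unadjusted p under 0.05. These counts are therefore not a result about these 7 genes. ACAT2, the cytosolic thiolase that joins the first acetyl-CoA units, was at 16.7, 17.97 and 15.7 FPKM in the controls and 13.7, 14.7 and 14.8 FPKM with LINC00888. The groups were apart and the log2 fold change was -0.21 ± 0.06 (SE), with an adjusted p of 0.0679 (limma). The kinases MVK and PMVK, the decarboxylase MVD and the isomerase IDI1, which turn mevalonate into isoprene units, had log2 fold changes from -0.0087 to 0.11, and their groups overlapped. MVK was the lowest of the 31 genes, at 2.26 ± 0.24 FPKM in the controls, and IDI1 was at 45.6 ± 1.16 FPKM. FDPS, which makes farnesyl diphosphate, went from 44.6 ± 1.53 to 42.8 ± 2.9 FPKM with overlapping groups. One of its 7 listed transcripts, FDPS-203, was at 45.8, 45.5 and 47.3 FPKM and then 32.4, 30.8 and 35.4 FPKM, with groups apart, and missed the threshold over all transcripts (adjusted p = 0.0755). GENCODE 29 names 8 pseudogenes after FDPS, so its reads may be shared with near copies.

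HMGCS1, which makes HMG-CoA, was at 2 levels that did not follow the groups. It was at 42.5, 38.7 and 16.1 FPKM in the controls and 17.5, 15.7 and 40.3 FPKM with LINC00888, so each group held libraries at both levels. Its log2 fold change was -0.41 with a 95% interval from -1.69 to 0.87 (adjusted p = 0.638 by limma). Both listed transcripts showed the same split: HMGCS1-201 was at 26.2, 25.8, 11.3, 10.2, 8.35 and 21.2 FPKM, and HMGCS1-202 at 29.3, 25.005, 9.08, 12.1, 11.4 and 31.8 FPKM, controls first. Among 6590 genes with a control mean of at least 5 FPKM, 68 (1.03%) had a highest library more than 2 times the lowest in both groups. HMGCS1 was the 1 gene of the 31 among them, and in 4 of the 68, HMGCS1 included, the 3 lowest libraries were those where HMGCS1 was low. How many of the 68 would share that split by chance was not worked out, so the 4 are not read as a shared pattern. The cause of the 2 levels was not tested.

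From squalene onwards CYP51A1 and NSDHL fell, each by less than STARD4, and the other 9 enzymes did not pass. Among all genes tested 13.5% were called and 5.46% were lower. With so few genes, these calls do not set this part of the branch apart. FDFT1, squalene synthase, was at 58.6, 63.3 and 61.1 FPKM in the controls and 55.01, 55.96 and 56.9 FPKM with LINC00888, with groups apart (log2 fold change -0.12 ± 0.04 SE, adjusted p = 0.0901 by limma). SQLE, squalene epoxidase and a rate-limiting step, was at 14.5, 15.2 and 14.5 FPKM and then 11.6, 14.4 and 14.4 FPKM. The groups were apart only narrowly, since LINC00888 library 1 alone lay well below the controls (adjusted p = 0.374). LSS, which closes the lanosterol ring, went from 12.7 ± 1.73 to 13.3 ± 0.80 FPKM with overlapping groups. CYP51A1, the demethylase that acts first on lanosterol, was at 57.2, 56.8 and 55.5 FPKM in the controls and 52.5, 49.4 and 51.5 FPKM with LINC00888. It fell by 9.51%, with no overlap (log2 fold change -0.14 ± 0.04 SE, adjusted p = 0.0497). NSDHL, a sterol dehydrogenase in the removal of methyl groups, was at 16.9, 17.5 and 18.2 FPKM and then 15.1, 15.5 and 15.3 FPKM. It fell by 12.6% (log2 fold change -0.19 ± 0.04 SE, adjusted p = 0.0351).

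Neither CYP51A1 nor NSDHL kept its call when any single library was dropped (largest adjusted p 0.129 and 0.11), nor after quantile normalization (0.169 and 0.0505); cyclic loess also ended that of CYP51A1 (0.198). CYP51A1 overlaps 2 annotated genes on its own strand and the antisense gene CYP51A1-AS1, and 3 pseudogenes are named after it. TM7SF2, a sterol reductase that shares its strand with VPS51 at the same place, was at 7.38, 8.43 and 8.59 FPKM in the controls and 9.48, 8.87 and 8.83 FPKM with LINC00888. Its groups were apart upwards, with an adjusted p of 0.2, and the sum of its listed transcripts had the opposite sign (log2 fold change -0.14). MSMO1, the methylsterol oxidase (36.6 ± 0.77 to 37.4 ± 0.70 FPKM), and HSD17B7, a ketosteroid reductase with 2 named pseudogenes (5.15 ± 0.07 to 5.13 ± 0.13 FPKM), hardly differed in mean and overlapped.

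Late enzymes EBP, SC5D and DHCR7 varied more among the control libraries than between the groups. The isomerase EBP was at 26.9, 28.2 and 20.3 FPKM in the controls and between 22.9 and 23.9 FPKM with LINC00888. The desaturase SC5D was at 6.13, 4.68 and 7.82 FPKM and then 8.28, 5.90 and 6.56 FPKM. DHCR7, which makes cholesterol from its direct precursor, was at 30.2, 17.4 and 23.9 FPKM and then between 22.2 and 22.6 FPKM. None of these 3 passed (adjusted p from 0.647 to 0.869 by limma; unadjusted p from 0.468 to 0.771), and the 95% interval of DHCR7 ran from -0.53 to 0.42.

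**Figure D3:**
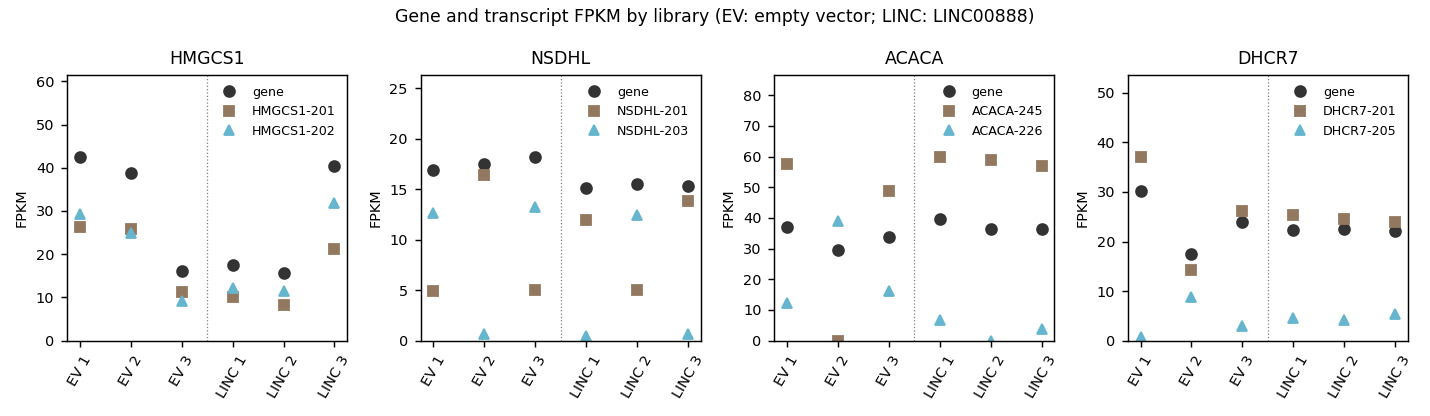
FPKM by library for HMGCS1, NSDHL, ACACA and DHCR7, each with its gene value (circles) and 2 of its transcripts (squares and triangles), empty vector libraries left of the dotted line and LINC00888 libraries right of it. HMGCS1 and both its transcripts are low in empty vector library 3 and LINC00888 libraries 1 and 2, while in NSDHL 2 transcripts trade places between libraries and the gene value stays between 15.1 and 18.2 FPKM.

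At the level of transcripts, 119 were listed for the 31 genes and 111 were tested. LPL-201 alone passed (0.901%), beside 0.379% of all transcripts (0.167% higher). An unadjusted p under 0.05 by limma was seen in 12, but the share of all transcripts at that cut is not given here. The 12 are therefore not a result about these genes. The groups did not overlap in 18 of the 111, 7 higher and 11 lower, beside 19.9% of all transcripts (10.7% higher and 9.19% lower). Several pairs traded places between libraries of 1 group. NSDHL-201 was at 4.90, 16.4 and 4.99 FPKM in the controls and 11.9, 5.03 and 13.9 FPKM with LINC00888, and NSDHL-203 at 12.6, 0.645 and 13.2 FPKM and then 0.481, 12.5 and 0.674 FPKM: where one was high the other was low. ACACA-245 was at 57.7 and 48.7 FPKM in empty vector libraries 1 and 3 and listed at 0 in library 2, where ACACA-226 reached 38.8 FPKM. ACACA-240 was at 3.42, 0.00266 and 0.127 FPKM in the controls and 13.3, 15.6 and 12.7 FPKM with LINC00888, and its groups were apart without a call (adjusted p = 0.217 by limma). The 2 listed SREBF1 transcripts that reach the far upstream start, SREBF1-201 and SREBF1-202, were at 10.4 and 7.37 FPKM in the controls and 10.1 and 7.11 FPKM with LINC00888. The shorter SREBF1-205 was at 17.8 and 16.8 FPKM.

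The fatty acid branch held the 2 most abundant of the 31 genes, SCD and FASN, and showed no call (0 of 7 by limma; 1 of 7, FADS2, at an unadjusted p under 0.05). Of all genes tested 13.5% were called, and 3657 of 11726 had an unadjusted p under 0.05, so for 7 genes these counts are near the background. SCD, the desaturase that makes oleate, was at 230, 219 and 231 FPKM in the controls and 228, 222 and 225 FPKM with LINC00888. Its log2 fold change was -0.011 with a 95% interval from -0.09 to 0.07. FASN, fatty acid synthase, was at 215, 184 and 206 FPKM and then 210, 206 and 180 FPKM (log2 fold change -0.018, interval -0.22 to 0.18). ACLY, which supplies acetyl-CoA from citrate, went from 99.7 ± 6.7 to 100.7 ± 3.2 FPKM, and ACACA, which makes malonyl-CoA, from 33.5 ± 3.7 to 37.5 ± 1.76 FPKM, both with overlapping groups. The desaturase FADS2, which starts the synthesis of polyunsaturated fatty acids, was at 63.6, 59.8 and 65.5 FPKM and then 58.9, 56.1 and 57.5 FPKM. Its groups were apart without a call (log2 fold change -0.13 ± 0.04 SE, adjusted p = 0.107). It overlaps FEN1 on its strand and FADS1 on the other. FADS1 (30.5 ± 1.27 to 29.9 ± 1.80 FPKM) and the phosphatidate phosphatase LPIN1 (11.4 ± 1.06 to 11.5 ± 1.18 FPKM) overlapped between groups.

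**Figure D4:**
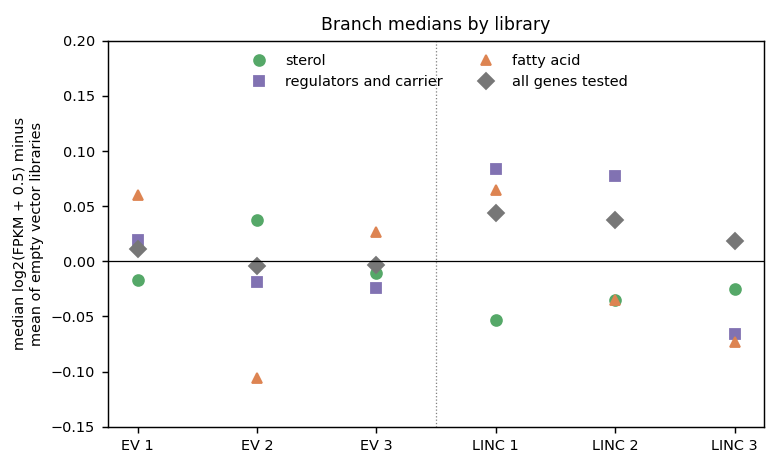
Median over the sterol, regulator and fatty acid branches of log2(FPKM + 0.5) minus the mean of the empty vector libraries, by library, with the median of all genes tested in grey. LPL, the 1 uptake gene, is not drawn. The medians of the sterol, regulator and fatty acid branches lie between -0.11 and 0.08 in every library, and the sterol median is below 0 in all 3 LINC00888 libraries, between -0.054 and -0.025, and in 2 of the 3 controls.

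Promoter sequences, 250 bases before to 50 after the start, were matched by symbol in RefSeq (GRCh38.p14) for 26 of the 31 genes. ACAT2, FASN, FDFT1, SQLE and LPL had no entry. These 26 genes had 37 promoters, and a gene counts where any of its promoters matched. A CCAAT box (CCAAT on either strand) is the site of the factor NF-Y, which works with the SREBP factors. It was present in 20 of the 26 (76.9%), beside 43.5% of 9228 listed genes with a promoter. By promoter it was in 24 of the 37, beside 34.6% of all 35116 promoters. The E-box CACGTG was present in 4 of the 26 (15.4%), beside 13.3% of listed genes. By promoter it was in 5 of the 37, beside 7.26% of all promoters. A sterol regulatory element written as TCACNCCAC on either strand was found in SREBF2 alone (1 of 26, 3.85%, beside 1.46% of listed genes). By promoter it was in 1 of the 37, beside 1.13% of all promoters. These are matches of letters, not measured sites. The promoters of INSIG1 (which rose), STARD4, NSDHL and CYP51A1 (which fell) and SREBF2 (groups apart without a call) follow 5′ to 3′ on the strand of the gene, with matches in capitals. INSIG1 lies at chr7:155297628-155297927 (+), with a CCAAT box 170 bases and an E-box 55 bases before the start. STARD4 lies at chr5:111512486-111512785 (-), with CCAAT boxes 161 and 130 bases before it. NSDHL lies at chrX:152830813-152831112 (+), with 5 CCAAT matches, 2 of which overlap. CYP51A1 lies at chr7:92134428-92134727 (-), and none of the 3 motifs was found in its window. SREBF2 lies at chr22:41832855-41833154 (+), with the sterol element 133 bases and a CCAAT box 106 bases before the start.
INSIG1: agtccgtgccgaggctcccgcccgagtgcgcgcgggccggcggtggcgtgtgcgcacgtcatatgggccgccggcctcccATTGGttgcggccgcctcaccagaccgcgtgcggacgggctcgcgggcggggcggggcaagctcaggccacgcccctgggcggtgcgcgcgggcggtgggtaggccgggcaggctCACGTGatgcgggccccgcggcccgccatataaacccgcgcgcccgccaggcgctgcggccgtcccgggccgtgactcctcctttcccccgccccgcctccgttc
STARD4: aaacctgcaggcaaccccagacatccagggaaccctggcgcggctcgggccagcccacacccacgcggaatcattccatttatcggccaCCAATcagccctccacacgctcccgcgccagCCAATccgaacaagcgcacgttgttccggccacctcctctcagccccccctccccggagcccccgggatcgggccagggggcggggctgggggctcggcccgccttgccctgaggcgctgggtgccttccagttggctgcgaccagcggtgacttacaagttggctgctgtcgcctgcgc
NSDHL: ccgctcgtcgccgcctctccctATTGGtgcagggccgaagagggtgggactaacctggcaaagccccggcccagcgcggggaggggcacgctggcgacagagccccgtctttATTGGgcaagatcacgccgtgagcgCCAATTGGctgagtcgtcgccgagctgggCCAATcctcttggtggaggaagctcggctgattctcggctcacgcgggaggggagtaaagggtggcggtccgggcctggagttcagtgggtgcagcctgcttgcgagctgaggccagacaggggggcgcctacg
CYP51A1: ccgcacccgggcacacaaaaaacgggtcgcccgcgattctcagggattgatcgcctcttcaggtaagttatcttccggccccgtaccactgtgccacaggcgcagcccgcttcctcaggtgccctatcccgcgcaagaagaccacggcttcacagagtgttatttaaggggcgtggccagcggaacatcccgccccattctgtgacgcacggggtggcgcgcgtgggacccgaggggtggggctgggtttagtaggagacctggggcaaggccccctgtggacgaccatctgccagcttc
SREBF2: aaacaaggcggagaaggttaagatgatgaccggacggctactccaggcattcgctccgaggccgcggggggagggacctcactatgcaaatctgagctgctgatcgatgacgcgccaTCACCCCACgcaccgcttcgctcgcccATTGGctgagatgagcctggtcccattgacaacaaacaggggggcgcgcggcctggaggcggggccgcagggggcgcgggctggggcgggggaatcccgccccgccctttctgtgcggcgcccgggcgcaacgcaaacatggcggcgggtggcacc

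Beyond the 31 genes, 77 others of lipid handling were listed by role, and 70 stood in the table, all of them tested. Of these 9 rose and 7 fell (22.9%, beside 13.5% of all genes tested), and the median of their log2 fold changes was 0.027, near that of all genes. The lists were drawn up with earlier results of these data known. Counts from them, here and by role below, are therefore not a result about these genes. Among genes that act on LPL or on uptake, LMF1, the factor that folds LPL, rose from 1.08 ± 0.07 to 1.448 ± 0.07 FPKM (adjusted p = 0.0371 by limma). The fatty acid transporter SLC27A2 rose from 12.7 ± 0.57 to 15.3 ± 0.45 FPKM. SLC27A4, of the same family, was lower in every LINC00888 library (14.9 to 13.3 FPKM) without a call (adjusted p = 0.0781 by limma). The groups of SLC27A1 and SLC27A3 overlapped. Of 6 genes tested for fatty acid uptake and binding, 2 rose and 0 fell, beside 8.02% higher and 5.46% lower over all genes tested. VLDLR, a receptor for triglyceride-rich particles, rose from 1.93 ± 0.06 to 2.49 ± 0.16 FPKM. SCARB1, the receptor for high-density lipoprotein, fell from 12.2 ± 0.41 to 9.95 ± 0.43 FPKM. ANGPTL4, an inhibitor of LPL, was at 0.943 and 1.08 FPKM and did not pass (adjusted p = 0.364). Leaving out any 1 of the 6 libraries ended the calls of LMF1 and VLDLR (adjusted p up to 0.115 and 0.102). Those of SLC27A2 and SCARB1 were lost without 5 and 4 of the 6 (up to 0.0769 and 0.0729), SLC27A2 keeping it only without empty vector library 2, SCARB1 only without empty vector library 2 or LINC00888 library 2. Quantile normalization and cyclic loess also ended those of LMF1 (0.0922 and 0.105) and VLDLR (0.102 and 0.121), and median ratio scaling that of VLDLR (0.052). With summed transcript FPKM, an alternative chosen after seeing the data, the log2 fold change of VLDLR turned from 0.29 to -0.026 (adjusted p = 0.952), and of the 16 called genes only HACD2 and SCARB1 kept their calls.

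The LXR receptors respond to oxysterols. Of 8 genes tested for sterol export, LXR signalling and ester storage, 3 rose and 1, an ester hydrolase, fell. Over all genes tested 8.02% were higher and 5.46% lower. With 8 genes, chosen with earlier results known, these counts are not a result about LXR signalling, which was not tested. ABCG1, a sterol exporter, was at 2.68, 2.39 and 2.23 FPKM in the controls and 3.77, 3.82 and 3.76 FPKM with LINC00888, with no overlap. It rose 1.56-fold (adjusted p = 0.0089 by limma) and kept its call without each library in turn, but not with summed transcript FPKM (adjusted p = 0.0597). MYLIP, a ubiquitin ligase for lipoprotein receptors, rose from 7.61 ± 0.24 to 9.10 ± 0.18 FPKM. RXRA, the partner of the LXR receptors, rose from 11.2 ± 0.28 to 13.05 ± 0.49 FPKM. NCEH1, a cholesteryl ester hydrolase, fell from 9.37 ± 0.21 to 7.87 ± 0.03 FPKM. The receptors themselves, NR1H2 (11.8 and 12.1 FPKM) and NR1H3 (2.47 and 2.47 FPKM), did not pass (adjusted p = 0.934 and 0.979). In SREBP processing and sterol sensing 2 of 11 fell and 0 rose, beside 5.46% lower and 8.02% higher over all genes tested: FAF2, which draws ubiquitinated proteins out of the endoplasmic reticulum (24.01 ± 0.60 to 20.7 ± 0.24 FPKM), and the INSIG1-binding protein PGRMC1 (55.5 ± 2.2 to 48.6 ± 1.24 FPKM). Calls of RXRA and NCEH1 were lost without any 1 library (adjusted p up to 0.103 and 0.0676). MYLIP kept its call only without empty vector library 2, PGRMC1 only without empty vector library 1 and FAF2 only without empty vector library 1 or 2 (otherwise up to 0.0795, 0.105 and 0.0644). Quantile normalization and cyclic loess also ended that of PGRMC1 (0.0659 and 0.0583).

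In fatty acid supply, the dehydratase of very long chain synthesis HACD2 was at 30.96, 29.6 and 30.1 FPKM in the controls and 23.5, 21.7 and 23.3 FPKM with LINC00888. It fell 1.33-fold (adjusted p = 0.00644 by limma) and kept its call without each library in turn. SCD5, a second stearoyl-CoA desaturase, rose from 2.78 ± 0.34 to 4.003 ± 0.25 FPKM (adjusted p = 0.0262), beside an SCD that was near 225 FPKM in both groups. Its call held only without empty vector library 2 among the left-out libraries (otherwise up to 0.0882), and was lost after quantile normalization (0.0551) and cyclic loess (0.0581). The other 4 genes past the threshold, with larger p than the 12 named so far, were HSD17B12 and PDSS1 (lower) and LPIN2 and DGAT2 (higher), with adjusted p from 0.0416 to 0.0499. Of the calls of these 4, those of PDSS1 and LPIN2 were lost without any 1 library, HSD17B12 kept it only without empty vector library 3 and DGAT2 only without LINC00888 library 2 (otherwise up to 0.131). DGAT2, LPIN2 and PDSS1 also missed the threshold with either of these 2 normalizations (adjusted p from 0.0536 to 0.0824).

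**Figure D5:**
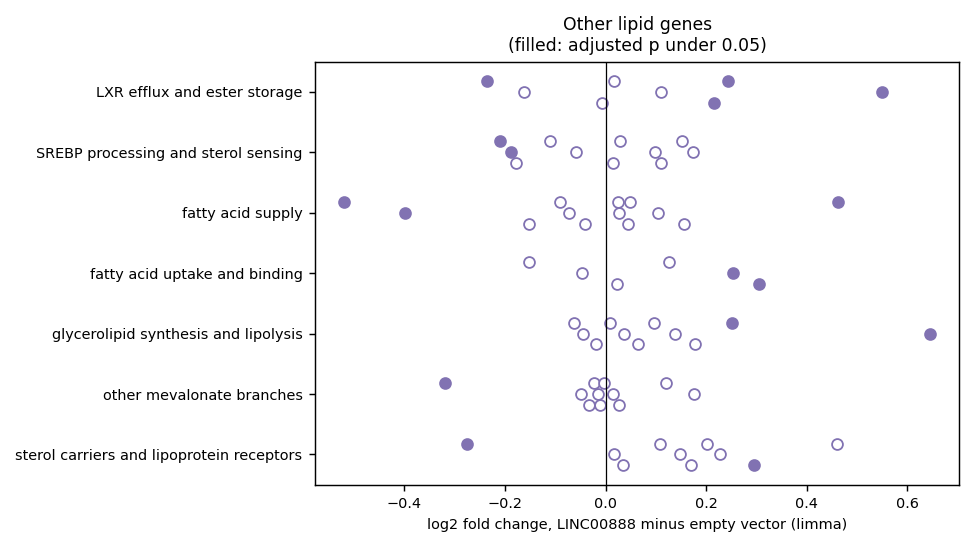
Log2 fold change (LINC00888 minus empty vector, limma) of 70 other lipid genes by role, 1 point per gene, filled for an adjusted p under 0.05. Filled points lie on both sides of 0, from -0.52 (HSD17B12) to 0.65 (DGAT2), and all lie below the 1.09 of LPL.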

How the data were processed

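RNA of 6 libraries, 3 per group, was read as strand-specific polyA libraries for 150 cycles per end, per the labels' protocols. Named in the submitters' processing notes are HISAT2, StringTie, cutadapt and FastQC, along with GRCm38, a mouse build; versions are not given in the sources used here. The identifiers are human, 11717 of 11844 carry the suffix of GENCODE's GRCh37 mapping, and 99 of 11765 genes found in GENCODE 29 had equal positions there. Values are FPKM, deposited by the authors per library, per the file headers. The higher group mean was at least 0.500091 in every listed gene. A gene's FPKM is not the sum of its listed transcripts; the ratio ran from 0.509 (SCAP) to 3.67 (FADS2). Whether counting used strand is not stated, so overlapping genes on opposite strands may share reads.

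Features were kept where 3 or more libraries reached 0.5 FPKM (11726 and 26941). Groups were compared on log2(FPKM + 0.5) with limma 3.58.1 in R 4.3.3 (eBayes, trended and robust). Tests were two-sided, p-values were adjusted over all features tested by Benjamini-Hochberg, and the threshold was 0.05. The pseudocount makes fold changes of low genes smaller. The procedure was tested on simulated data with independent normal noise, which lacks patterns such as the split levels of HMGCS1. Members, roles and the other lipid lists were chosen with earlier results of these data known. All 31 members are reported. Other lipid genes were to be named where past the threshold, up to 12 by smallest p. The rest past the threshold were then named as well. ANGPTL4, NR1H2, NR1H3, SLC27A1, SLC27A3 and SLC27A4 were also named, although they did not pass. The promoter motifs were chosen after the values were seen. Alternatives were pseudocounts of 0.1 and 1, no filter, a filter at 1, median ratio, quantile and cyclic loess scaling, eBayes without trend and robust, a replicate block, leaving out each library and, added after seeing the data, summed transcript FPKM.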

Additional observations from a re-analysis of the deposited data

How the results depend on the processing

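LPL passed under all 16 alternatives (adjusted p from 0.000184 to 0.0125). The count of the 31 genes past the threshold, 5, was 1 to 2 without 1 library (1 higher, and 0 to 1 lower), 2 (1 and 1) without trend and robust, and 2 (1 and 1) with summed transcript FPKM, chosen after seeing the data. Median ratio scaling gave 4 (1 higher and 3 lower), and quantile normalization gave 4 (3 higher and 1 lower). The replicate block left 1 higher and 0 lower, and ended the call of STARD4 (adjusted p = 0.0569). Nothing in the labels beyond the number pairs the libraries. Deviations of same-numbered libraries correlated at 0.038, 0.022 and -0.035, and those of differently numbered libraries at -0.082 to 0.059. With 3 libraries per group these values cannot settle whether the libraries were paired. Over all genes, 1581 calls (941 higher, 640 lower) became 429 (229 and 200) with the block, 427 (217 and 210) with summed transcripts and 536 to 815 (284 to 487 and 252 to 329) without 1 library; median ratio scaling gave 750 higher and 844 lower. Over all transcripts, 102 calls became 0 with the block and 22 to 45 without 1 library, and transcripts of the 31 genes past the threshold went from 1 to 0 and to 1 to 2. Of the other lipid genes, 16 calls became 9 after quantile normalization, 9 after cyclic loess, 2 with the block, 2 with summed transcripts and 2 to 7 without 1 library. The cause of these changes was not tested, and the fits without 1 library also had fewer libraries.

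The sterol median moved to -0.068 with median ratio scaling and -0.12 with summed transcripts, and was -0.049 to -0.011 without 1 library; the median of regulators and carriers moved to 0.14 with summed transcripts. Some log2 fold changes changed sign, in genes with no call except VLDLR. With median ratio scaling these were MVK (-0.0022), MVD (-0.028), MSMO1 (-0.0068), SCAP (-0.0012), ACLY (-0.019) and LPIN1 (-0.029). With quantile normalization and cyclic loess they were MVK (-0.057 and -0.065), MVD (-0.041 and -0.053), IDI1 (0.027 and 0.041), FASN (0.033 and 0.057), SCD (0.040 and 0.064), FADS1 (0.0031 and 0.011) and LPIN1 (-0.013 and -0.0041). With summed transcripts they were MVD (-0.11), TM7SF2 (-0.14), HSD17B7 (0.067), FASN (0.0098) and VLDLR (-0.026). Without 1 library the ranges crossed 0 for MVK (-0.033 to 0.090), MVD (-0.032 to 0.027), IDI1 (-0.031 to 0.0080), HSD17B7 (-0.015 to 0.015), SC5D (-0.016 to 0.33), DHCR7 (-0.26 to 0.13), ACLY (-0.037 to 0.058), FASN (-0.084 to 0.051), SCD (-0.035 to 0.0027), FADS1 (-0.072 to 0.011) and LPIN1 (-0.075 to 0.075). Depth is unknown, so no counting error could be given.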
